A study of Mus musculus with 24 samples.

Results

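The genes of 10 integrin subunits, 5 β subunits (*Itgb1*, *Itgb3*, *Itgb4*, *Itgb5* and *Itgb6*) and 5 α subunits (*Itgav*, *Itga2*, *Itga3*, *Itga5* and *Itga6*), were followed across 24 1-colour microarrays of HC11 cells, an established line of mouse mammary epithelium (a subline of COMMA-D, from a Balb/c mouse in pregnancy) that can be induced to express milk proteins. A probe was assigned to a gene where the RefSeq accession given for it on the array is one of that gene, which gave 14 probes of 55681, for 10 of the 20141 genes that could be named. *Itgb1*, *Itgb3*, *Itgb6* and *Itgav* have 2 probes each, and the brighter probe stands for the gene unless the other is named. The study asked how the noncoding RNA *mPINC* affects gene expression in cells kept without (−LH) or treated with (+LH) lactogenic hormones (hydrocortisone, insulin and prolactin). Cells were transfected with 10 nM of a negative control siRNA (siNEG, labelled siNegative), of siRNAs (siPINC1.0/1.6, labelled siPINC1/6) against the isoforms *mPINC1.0* and *mPINC1.6* or of siRNAs against all splice forms (siPINC), with n = 2 cultures per group for −LH and n = 3 for +LH. Further cells carried a lentivirus with GFP (LeGO-GFP), with both isoforms (LeGO-1.0/1.6, labelled LeGO-1/6) or with a mutant that lacks the conserved regions (LeGO-DCR), all +LH, with n = 3 per group. The transduced cells were expanded and frozen before use, with no cloning described, and the length of the hormone treatment behind these arrays is not given in the sources used here.

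Integrins are transmembrane receptors made of 1 α and 1 β subunit that bind the extracellular matrix outside the cell and the cytoskeleton inside it. The β1 subunit pairs with most α subunits, among them α2 (a collagen receptor), α3 and α6 (laminin receptors) and α5 (the classical fibronectin receptor), whereas β4 pairs only with α6 and anchors hemidesmosomes, the junctions that tie epithelial keratins to laminin. The αv subunit pairs with β1, β3, β5 and β6 and binds ligands such as vitronectin, fibronectin and latent TGFβ. In the mammary gland, attachment to laminin through β1 integrins is needed for the response to prolactin, and β3 (CD61) is used as a surface marker of luminal progenitor cells.

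Signals are given as log2 values after quantile normalization, and a difference of 1 is a 2-fold change. A gene was called different at an adjusted p under 0.05 from limma, with the Benjamini-Hochberg adjustment over all 55681 probes, and errors of differences are standard errors (SE). Between 24020 and 35790 probes per array were well above background by the scanner's own mark. The array with the most such probes was LeGO-1.0/1.6 replicate 1. The probes of 9 of the 10 genes were well above background on all 24 arrays. *Itga2* was so on 4 arrays only, namely the 3 LeGO-1.0/1.6 arrays and siPINC1.0/1.6 +LH replicate 3. The epithelial markers *Krt8*, *Krt18*, *Epcam*, *Cdh1*, *Krt5* and *Krt14* were above background on all 24 arrays, whereas *Krt19* was so on 1. Of 4 endothelial genes, *Kdr* was above background on 24 arrays, *Pecam1* on 22, *Cdh5* on 1 and *Tek* on 0. Among leukocyte genes, *Cd14*, *Csf1r* and *Cd3e* were so on 24 arrays, *Adgre1* on 19 and *Ptprc* on 7. The *mPINC* probe fell by 1.11 ± 0.11 (SE) with siPINC1.0/1.6 (adjusted p = 0.0366, limma) and differed by -1.17 ± 0.11 with siPINC (adjusted p = 0.15, limma) in −LH cells. In +LH cells that probe was not well above background on every array, and the differences were 0.19 ± 0.19 and -0.50 ± 0.19 (adjusted p = 0.71 and 0.43, limma). It rose by 7.37 ± 0.14 in LeGO-1.0/1.6 over LeGO-GFP cells, and LeGO-DCR lay at the LeGO-GFP level (6.06 and 6.07). Whether the probe lies in the part that LeGO-DCR lacks is not given in the sources used here, so it does not check that label. By RT-PCR and qPCR, the study reported overexpressed *mPINC* transcript in LeGO-DCR cells.

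*Itgb3* varied the most of the 9 genes above background on all arrays, with group means 4.10 apart. In −LH cells its signal was 11.07 and 11.11 in siNEG, 9.95 and 9.95 in siPINC1.0/1.6 and 10.81 and 10.70 in siPINC. In +LH cells it was 9.30, 9.21 and 9.27 in siNEG, 9.61, 9.60 and 9.69 in siPINC1.0/1.6 and 9.32, 9.26 and 9.26 in siPINC. In the lentivirus cells it was 7.10, 6.83 and 7.03 with LeGO-GFP, 7.80, 8.06 and 8.17 with LeGO-1.0/1.6 and 7.11, 7.08 and 7.10 with LeGO-DCR. The signal was thus highest in undifferentiated control cells and lowest in hormone-treated LeGO-GFP and LeGO-DCR cells, whose values overlapped, as did those of siPINC +LH and siNEG +LH. All other neighbours in this order were apart.

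**Figure D1:**
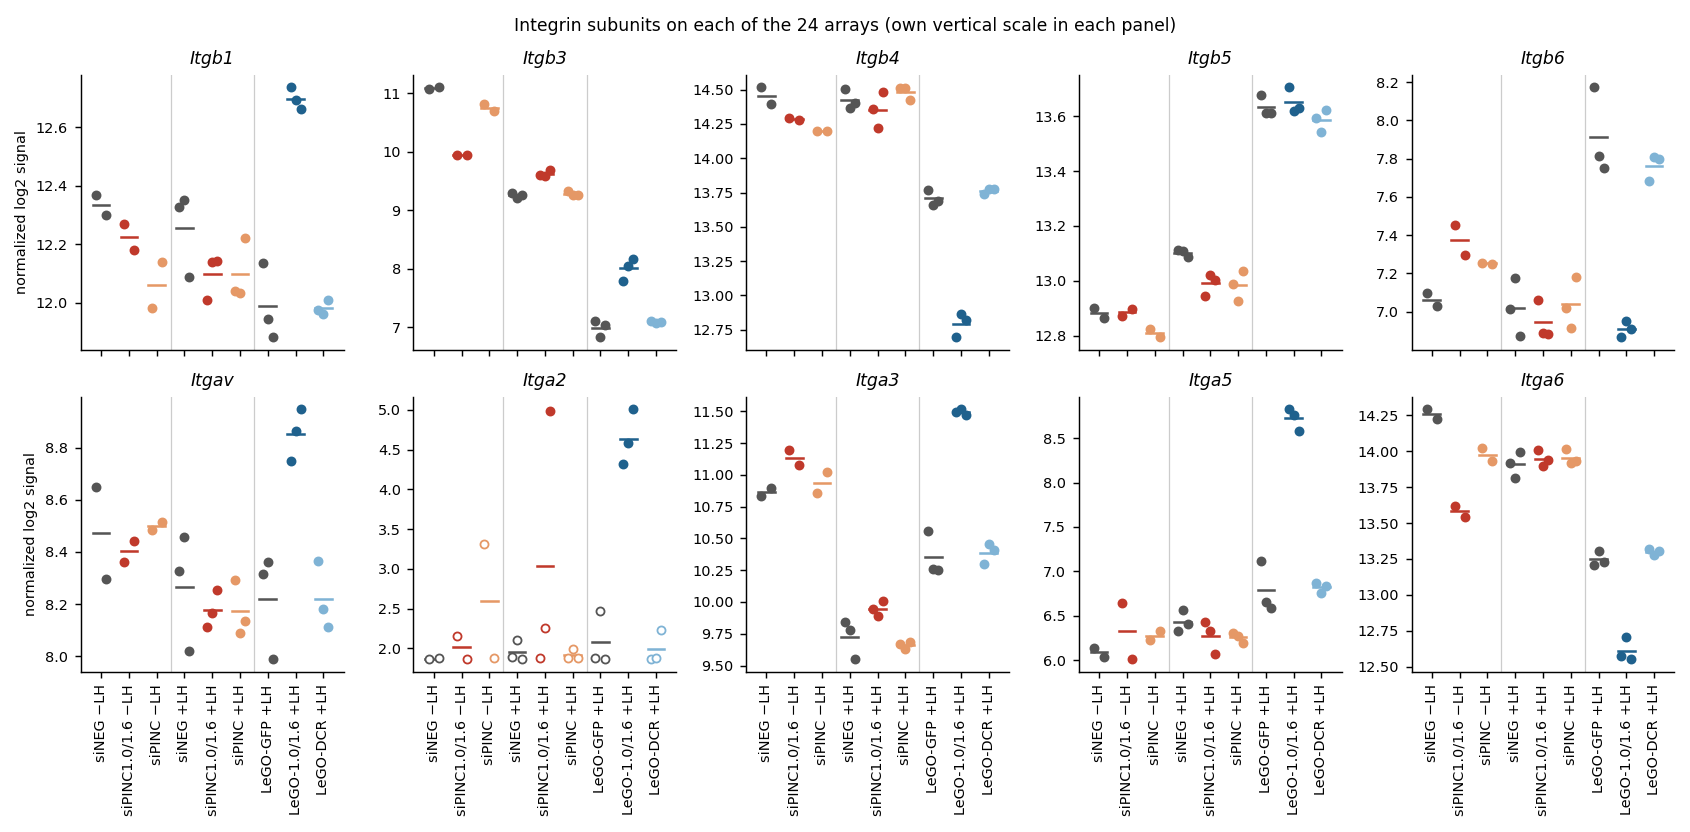
Normalized log2 signal (vertical axis, a scale of its own in each panel) of the 10 integrin genes on each of 24 arrays, in 9 groups (horizontal axis), with a line at each group mean and open circles where the probe was not well above background. *Itgb3* falls from 11.09 in siNEG −LH to 6.99 in LeGO-GFP, and the LeGO-1.0/1.6 arrays stand apart from LeGO-GFP for all genes but *Itgb5*.

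Without hormones, knockdown of *mPINC1.0* and *mPINC1.6* lowered *Itgb3* and *Itga6*, and none of the 10 genes was called higher. *Itgb3* fell by 1.14 ± 0.06 (adjusted p = 0.0263, limma), a 2.20-fold drop, and both siPINC1.0/1.6 arrays lay below both siNEG arrays. The study picked *Itgb3* from these same arrays, so its fall here is not independent evidence. The second *Itgb3* probe was dimmer and lay at 5.73 and 5.80 in siNEG against 4.37 and 4.48 in siPINC1.0/1.6, a difference of -1.34 ± 0.27 that did not pass (adjusted p = 0.0962, limma). *Itga6*, the laminin-binding partner of both β1 and β4, read 14.29 and 14.22 in siNEG and 13.62 and 13.55 in siPINC1.0/1.6, and so fell by 37.4% (log2 fold change -0.67 ± 0.07, adjusted p = 0.0386, limma). The groups did not overlap. Its partner *Itgb4* differed by -0.17 ± 0.07 and did not pass (adjusted p = 0.28, limma). With 2 of 10 genes called, the background was 2.96% of all probes. At an unadjusted p under 0.05 in limma there were 4 genes, where 19.2% of all probes passed. Among genes not called, group means went from 10.87 in siNEG to 11.14 in siPINC1.0/1.6 for *Itga3* and from 7.06 to 7.37 for *Itgb6*. They went from 12.33 to 12.22 for *Itgb1* and from 14.46 to 14.29 for *Itgb4*. Both calls were lost when any 1 of the 6 −LH arrays was left out: the adjusted p of *Itgb3* was then between 0.0673 and 0.101 and that of *Itga6* between 0.0939 and 0.135 (limma), with log2 fold changes of -1.16 to -1.12 and -0.71 to -0.64. Over all probes, 1650 calls fell to between 0 and 177 in those fits.

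Knockdown of all splice forms gave smaller differences of *Itgb3* and *Itga6* in the same −LH cells, but not of *Itgb1* and *Itgb4*. The mean of *Itgb1* was 12.33 in siNEG, 12.22 with siPINC1.0/1.6 and 12.06 with siPINC. That of *Itgb4* was 14.46, 14.29 and 14.20. *Itgb3* differed by -0.34 ± 0.06 and *Itga6*, at 14.02 and 13.93, by -0.28 ± 0.07 (adjusted p = 0.29 and 0.35, limma). No gene of the 10 was called by limma or by the methods' t-test after adjustment, and the background was 0.0%. At an unadjusted p under 0.05 in limma there were 4 genes, where 9.68% of all probes passed. The 4 were *Itgb3*, *Itga6*, *Itgb1* and *Itgb4*, named after their values were seen, and all 4 had negative differences.

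In +LH cells *Itgb3* was higher with the same siPINC1.0/1.6 siRNAs. The *mPINC* probe showed no fall there (0.19 ± 0.19, adjusted p = 0.71, limma) and was not well above background on every array. The increase of *Itgb3* was 0.37 ± 0.05 (adjusted p = 0.00984, limma), or 1.29-fold, and all 3 siPINC1.0/1.6 arrays exceeded all 3 siNEG arrays. The call was lost with the 75th percentile in place of quantile normalization (adjusted p = 0.079, limma) and with the mean of both probes (difference 0.56, adjusted p = 0.24, limma), and the second probe was above background on 0 of 3 siNEG arrays. With the slide as a term, which leaves out the siNEG array that lay on another slide (replicate 1), the increase was 0.39 (adjusted p = 0.0296, limma). *Itgb3* was the only one of the 10 genes called, against a background of 3.84%. *Itga6* differed by 0.04 ± 0.06, with values of 13.92, 13.81 and 14.00 in siNEG and 14.01, 13.90 and 13.94 in siPINC1.0/1.6 that overlapped. *Itga3* differed by 0.22 ± 0.08 (adjusted p = 0.25, limma). With siPINC in +LH cells no gene was called by limma or by the methods' t-test after adjustment, and the background was 0.681%. At an unadjusted p under 0.05 there was 1 gene (*Itgb5*, -0.12 ± 0.05), where 10.1% of all probes passed. *Itgb3* then differed by 0.02, with a 95% interval from -0.10 to 0.14.

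The effect of siPINC1.0/1.6 on *Itgb3* and *Itga6* differed between the hormone states when the difference itself was tested. The interaction term was 1.51 ± 0.08 for *Itgb3* (adjusted p = 1.48e-05, limma) and 0.71 ± 0.10 for *Itga6* (adjusted p = 0.00274, limma), and each was past the threshold in all 24 alternative fits made for it. These 2 genes were the only ones of the 10 called, where 3.19% of all probes were. The study picked *Itgb3* partly by its −LH fall, so the interaction of *Itgb3* is not independent evidence. For siPINC no gene passed this test with limma, and the background was 0.503%. At an unadjusted p under 0.05 there were 3 genes, where 7.24% of all probes passed. The interaction for *Itgb3* was then 0.36 ± 0.08 (adjusted p = 0.12, limma).

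**Figure D2:**
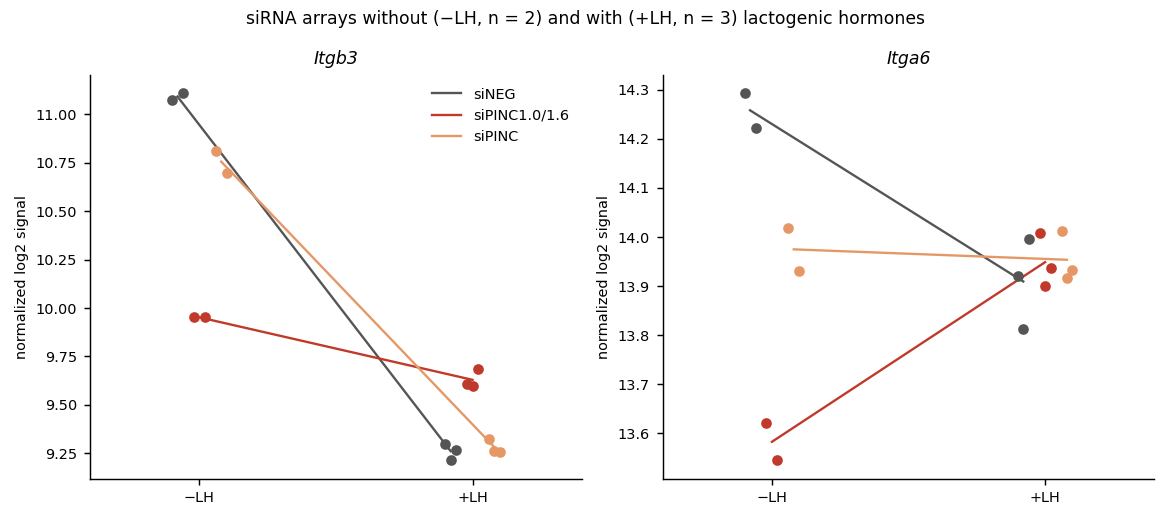
Normalized log2 signal (vertical axis) of *Itgb3* and *Itga6* on the siRNA arrays without (−LH, n = 2) and with (+LH, n = 3) lactogenic hormones, with points for arrays and lines joining group means. The siPINC1.0/1.6 cells lie 1.14 below siNEG for *Itgb3* in −LH cells and 0.37 above it in +LH cells.

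Control cells treated with hormones had lower *Itgb3*, *Itga3* and *Itga6* and slightly higher *Itgb5*. By the methods, hormones were given in a priming medium with stripped serum, for which EGF is not listed, unlike for the growth medium. The medium of the −LH cells is not given for these arrays, so hormones and medium cannot be told apart. *Itgb3* fell by 1.83 ± 0.06, or 3.56-fold (adjusted p = 2.70e-09, limma). On its second probe the fall was at least 2.61-fold, since no siNEG +LH array was well above background there. *Itga3*, the α chain of the α3β1 laminin receptor, read 10.84 and 10.90 without hormones and 9.85, 9.78 and 9.55 with them, a 2.21-fold fall (log2 fold change -1.14 ± 0.09, adjusted p = 2.94e-06, limma). *Itga6* fell by 0.35 ± 0.07 (adjusted p = 0.0027, limma). *Itgb5*, a vitronectin receptor chain, rose from 12.90 and 12.87 to 13.11, 13.11 and 13.09, a change of 0.22 ± 0.05 (adjusted p = 0.00687, limma). None of the 4 genes had overlapping groups. The rise of *Itgb5* was lost without siNEG −LH replicate 2 (0.20, adjusted p = 0.0538, limma), with the deposited processed values (0.21, adjusted p = 0.0591, limma) and with the 75th percentile (0.04, adjusted p = 0.75, limma), a scaling that moved the median of all probes in this comparison from 0.01 to 0.18 and left 0 genes higher and 4 lower, with *Itgb4* called lower besides the other 3.

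Of the other genes, *Itga5* differed by 0.34 ± 0.17 (adjusted p = 0.18, limma), *Itgav* by -0.21 ± 0.13, *Itgb1* by -0.08 ± 0.10, *Itgb4* by -0.03 ± 0.08 and *Itgb6* by -0.04 ± 0.11, and none of these passed. *Itga5* did pass when either siPINC1.0/1.6 −LH array, which enters this fit through the shared spread, was left out. The call of 4 genes, 1 higher and 3 lower, stood against a background of 27.1% of all probes, 13.5% higher and 13.6% lower. All −LH arrays were on slide 1, which also held 1 +LH siNEG array, replicate 1. Within that slide the differences were -1.79 for *Itgb3*, -1.02 for *Itga3*, -0.34 for *Itga6* and 0.23 for *Itgb5*. In the same comparison 4 of 5 basal markers fell, among them the keratins *Krt5* (by 2.72 ± 0.07) and *Krt14* (by 1.11 ± 0.11), and 1 rose (*Acta2*, 0.92 ± 0.11). Of 5 luminal markers 3 rose, namely *Krt8* (1.81-fold), *Krt18* (2.64-fold) and *Epcam* (1.35-fold). The milk protein gene *Csn2* was above background on no siNEG −LH array and rose at least 114-fold. Whether a shift in the kinds of cells in the cultures has a part in the integrin changes was not tested, and in bulk RNA fewer cells of a type cannot be told apart from less RNA per cell.

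Cells overexpressing *mPINC1.0* and *mPINC1.6* differed from LeGO-GFP cells in 9 of the 10 integrin genes. How many separate transductions lie behind the arrays of each construct is not given in the sources used here. Where cultures share a transduction, a difference between the transduced populations cannot be told apart from an effect of *mPINC*. The 6 subunits that rose were *Itga2*, *Itga3*, *Itga5*, *Itgav*, *Itgb1* and *Itgb3*, while *Itga6*, *Itgb4* and *Itgb6* fell and *Itgb5* did not pass the test. The background in this comparison was 30.3% of all probes, 14.5% higher and 15.8% lower, and the median log2 fold change was 0.67 over the 10 genes and -0.01 over all probes. All 9 calls held in each of the 19 alternative fits. A fit among them has the slide as a term, which leaves out LeGO-GFP replicate 1 on another slide, and gave 2.11 for *Itga5*, 1.08 for *Itgb3* and -0.88 for *Itgb4*.

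**Figure D3:**
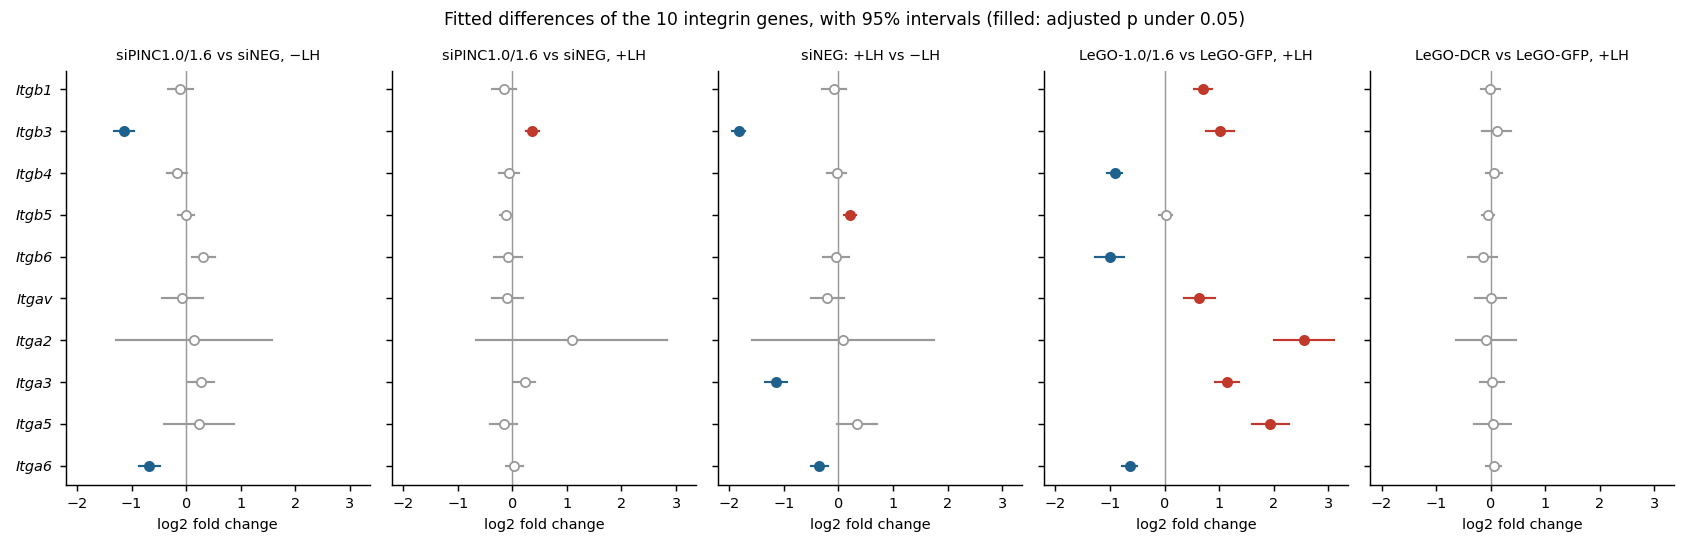
Log2 fold changes (horizontal axis, with 95% intervals from limma) of the 10 integrin genes in 5 comparisons, where filled points passed an adjusted p of 0.05, red for higher and blue for lower. The LeGO-1.0/1.6 comparison has 9 filled points of 10 and the siPINC1.0/1.6 comparison in −LH cells has 2.

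The fibronectin receptor chain *Itga5* had the widest change among the genes measured in both groups. Its signal was 7.12, 6.65 and 6.58 with LeGO-GFP, 8.83, 8.76 and 8.58 with LeGO-1.0/1.6 and 6.87, 6.76 and 6.84 with LeGO-DCR. All LeGO-1.0/1.6 arrays lay above all others, and the rise over LeGO-GFP was 3.83-fold (log2 fold change 1.94 ± 0.14, adjusted p = 4.04e-05, limma). The collagen receptor chain *Itga2* was well above background on no LeGO-GFP array and on all 3 LeGO-1.0/1.6 arrays, where it read 4.33, 4.58 and 5.01, so that its rise was at least 1.49-fold, a bound set by the lowest signal that was well above background on each array. The adjusted p of its fit was 0.000112 (limma).

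The laminin receptor chains moved in opposite directions. *Itga3* rose from 10.56, 10.26 and 10.25 with LeGO-GFP to 11.49, 11.52 and 11.47 with LeGO-1.0/1.6, a change of 2.20-fold (log2 fold change 1.14 ± 0.09, adjusted p = 6.37e-05, limma). *Itga6* fell from 13.21, 13.31 and 13.23 to 12.57, 12.71 and 12.55, or 1.55-fold (log2 fold change -0.64 ± 0.06, adjusted p = 0.000113, limma). *Itgb4* fell from 13.77, 13.66 and 13.69 to 12.69, 12.86 and 12.82, or 1.88-fold (log2 fold change -0.91 ± 0.06, adjusted p = 2.16e-05, limma). The chains of α6β4, the hemidesmosome integrin, were thus both lower, with no overlap between the groups, while the chain of α3β1 was higher.

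Among αv and its β partners, *Itgb1* rose from 12.14, 11.95 and 11.88 to 12.74, 12.69 and 12.66 (log2 fold change 0.71 ± 0.07, adjusted p = 0.000191, limma), and its second probe gave 0.28 ± 0.07 (adjusted p = 0.014, limma). *Itgav* rose from 8.32, 8.36 and 7.99 to 8.75, 8.87 and 8.95 (log2 fold change 0.63 ± 0.12, adjusted p = 0.00515, limma), and its second probe gave 0.93 ± 0.21. *Itgb3* rose by 1.02 ± 0.11 (adjusted p = 0.000285, limma), a 2.03-fold change from the values given above. The study picked *Itgb3* as lower with knockdown and higher with overexpression on these same arrays, so this rise is not independent evidence. The second *Itgb3* probe was well above background on no LeGO-GFP array and gives no fold. *Itgb6*, which with αv activates latent TGFβ, fell from 8.17, 7.81 and 7.75 to 6.87, 6.95 and 6.91 (2.0-fold lower, adjusted p = 0.00033, limma), while its dim second probe was not called. *Itgb5* read 13.68, 13.61 and 13.61 with LeGO-GFP and 13.71, 13.62 and 13.63 with LeGO-1.0/1.6, a difference of 0.02 with a 95% interval from -0.10 to 0.13. Only *Itgb5* had overlapping groups among the β partners of αv.

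The promoter windows of *Itga5* and *Itga3*, which rose, and of *Itgb6*, which fell, are shown to set these genes beside their sequence, as 250 bases before and 50 after the most upstream RefSeq start on GRCm38.p6. Capitals mark GGGCGG, the GC box, or its reverse CCGCCC. RefSeq entries were matched for 7 of the 10 genes, and not for *Itgb3*, *Itgb4* and *Itga6*.
Itga5, chr15:103366742-103367041, minus strand: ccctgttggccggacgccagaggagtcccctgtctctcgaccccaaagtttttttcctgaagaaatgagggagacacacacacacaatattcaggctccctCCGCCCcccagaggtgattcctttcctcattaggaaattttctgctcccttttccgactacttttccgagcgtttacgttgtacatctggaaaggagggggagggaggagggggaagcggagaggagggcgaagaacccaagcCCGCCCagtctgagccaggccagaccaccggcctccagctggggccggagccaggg
Itga3, chr11:95076665-95076964, minus strand: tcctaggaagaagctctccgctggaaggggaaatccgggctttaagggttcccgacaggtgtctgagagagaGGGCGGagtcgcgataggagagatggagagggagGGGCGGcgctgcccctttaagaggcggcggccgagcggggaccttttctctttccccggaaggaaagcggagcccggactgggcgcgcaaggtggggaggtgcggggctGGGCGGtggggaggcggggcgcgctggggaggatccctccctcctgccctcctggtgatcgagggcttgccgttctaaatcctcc
Itgb6, chr2:60722554-60722853, minus strand: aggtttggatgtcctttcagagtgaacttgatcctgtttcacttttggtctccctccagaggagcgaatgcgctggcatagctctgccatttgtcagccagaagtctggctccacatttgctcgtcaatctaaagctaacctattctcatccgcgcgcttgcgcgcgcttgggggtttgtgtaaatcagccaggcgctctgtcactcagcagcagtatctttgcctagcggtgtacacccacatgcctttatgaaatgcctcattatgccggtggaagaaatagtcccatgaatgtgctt
*Itga3* holds 3 GC boxes, *Itga5* holds 2 and *Itgb6* holds none. Of the windows not shown, that of *Itgb5*, which did not pass with overexpression, also holds 3. Those of *Itgb1* and *Itga2*, which rose, hold 1 each. The only window of *Itgav*, which rose as well, also holds 1 but does not lie at the 5′ end of that gene. The motif was in 35.7% of 32851 promoter windows of this length. TGANTCA (AP-1, in 7.81% of windows), TTCNNNGAA (STAT, 8.30%), AGAACA (part of the glucocorticoid receptor element, 19.0%) and TATAAA (13.6%), searched on both strands, were in none of the 3. AGAACA was in the windows of *Itgb1* and *Itga2*, with 1 match each. RefSeq gives a further start for *Itga3*, whose window holds 1 GC box and 1 TGANTCA match, and for *Itgb6*, whose window holds none of these motifs. A match is a description of these letters and not of a bound site.

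Against LeGO-DCR the same LeGO-1.0/1.6 arrays gave *Itga5* 1.90 ± 0.14, *Itga3* 1.11 ± 0.09, *Itgb3* 0.91 ± 0.11, *Itgb1* 0.71 ± 0.07 and *Itgav* 0.63 ± 0.12 on the log2 scale, and *Itga2* was at least 1.68-fold higher. *Itgb4* gave -0.97 ± 0.06, *Itgb6* -0.85 ± 0.11 and *Itga6* -0.69 ± 0.06, and *Itgb5* gave 0.07 ± 0.05 and did not pass. All of the others passed, 6 higher and 3 lower, against a background of 29.7%. The LeGO-1.0/1.6 arrays are shared by both comparisons, so one does not repeat the other. Between LeGO-DCR and LeGO-GFP, no gene of the 10 was called by limma or by the methods' t-test after adjustment, and the background was 0.0736%. At an unadjusted p under 0.05 there were 0 genes, where 4.52% of all probes passed. The fitted differences of the probes that stand for the genes ran from -0.15 for *Itgb6* to 0.11 for *Itgb3*, whose 95% interval was -0.15 to 0.37. The second *Itgb1* probe read 9.58, 9.65 and 9.68 with LeGO-DCR and 9.96, 10.05 and 9.85 with LeGO-GFP, which did not overlap, a difference of -0.32 ± 0.07 (adjusted p = 0.36, limma). The second *Itgb3* probe was above background on no array of either group.

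Markers of other cell states moved in LeGO-1.0/1.6 cells too, in the comparison with LeGO-GFP in which 14.5% of all probes rose and 15.8% fell. Of 10 mesenchymal markers 6 rose and 3 fell, with *Zeb1* from a mean of 4.99 to 8.45 and *Zeb2* from 5.26 to 8.59, both repressors of epithelial genes, while *Col3a1* fell by 4.12 on the log2 scale. The summed level of that list lay at 13.44 to 13.48 with LeGO-GFP and 13.18 to 13.26 with LeGO-1.0/1.6. Of 5 luminal markers 3 fell, of 5 basal markers 2 rose and 3 fell, of 6 leukocyte markers 2 fell, and of 4 endothelial markers none was called. Of 4 lactogenic genes 3 fell, with *Csn2*, above background on no LeGO-1.0/1.6 array, at least 6.75-fold lower. The luminal sums were 15.14 to 15.15 and 14.92 to 15.03, and the basal sums 16.29 to 16.42 and 15.97 to 16.01. The endothelial gene *Kdr* read a mean of 11.24 with LeGO-GFP and 11.19 with LeGO-1.0/1.6, while *Cdh5* and *Tek* were above background on no array of either group. The part of these markers in the integrin changes was not tested.

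The LeGO-GFP and siNEG +LH cells are separate preparations, and their integrin levels differed. *Itgb3* was 2.27 lower on the log2 scale in LeGO-GFP cells (-2.27, and -2.20 for the 1 array of each on slide 1), *Itgb4* differed by -0.72, *Itga6* by -0.66, *Itgb6* by 0.89, *Itga3* by 0.63 and *Itgb5* by 0.53. These are descriptions without a test, and cell preparation and treatment cannot be told apart.

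Across the 9 group means, the gene pairs with the closest patterns were *Itgb4* and *Itga6* (Pearson r = 0.95), *Itgav* and *Itga3* (0.86) and *Itgb1* and *Itgav* (0.84), while *Itgb4* and *Itga5* (-0.96) and *Itgb3* and *Itgb5* (-0.94) ran opposite. The 9 groups share control cells and slides, so these values are descriptions only. After *Itgb3*, the ranges of group means were 2.63 for *Itga5*, 1.83 for *Itga3*, 1.69 for *Itgb4*, 1.65 for *Itga6*, 1.00 for *Itgb6*, 0.84 for *Itgb5*, 0.71 for *Itgb1* and 0.68 for *Itgav*. *Itga2* is left out of this order, since it was not well above background in most groups. Over 18120 probes, those most like *Itgb3* across the 9 groups were *Ppp1r35* (r = 0.996), *Rpl13* (0.987) and *Gm14403* (0.987). *Ppp1r35* read from 10.13 in siNEG −LH to 9.18 in LeGO-GFP, a narrower range than that of *Itgb3*.

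Other genes of the integrin pathway changed in both directions with overexpression, where 14.5% of all probes were called higher and 15.8% lower. Of 15 other integrin subunits, 4 rose and 2 fell in LeGO-1.0/1.6 over LeGO-GFP, with *Itga7*, a laminin receptor chain, at 2.23 ± 0.21 and *Itgb8*, a further αv partner, at -2.67 ± 0.19. Of 25 matrix ligands, 11 rose and 6 fell, with *Cyr61* at 2.36 ± 0.08, the laminin chain *Lamb1* at 1.87 ± 0.07, *Ctgf* at -2.13 ± 0.05 and *Fbln5* at -2.01 ± 0.07. Of 24 genes of the adhesion complex inside the cell, 10 rose and 9 fell, with *Lims2* at 1.32 ± 0.10. *Tln2*, a talin gene whose protein links β chains to actin, gave -3.46 ± 0.08. The other talin gene of that list, *Tln1*, is not reported here. Of 9 partners of the hemidesmosome, 3 rose and 5 fell. The basal keratins *Krt5* and *Krt14*, which hemidesmosomes anchor, gave -2.76 ± 0.08 and -1.78 ± 0.05. The median differences were 0.40 for ligands and -0.47 for hemidesmosome partners, beside -0.01 over all probes. These lists share some laminin genes.

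**Figure D4:**
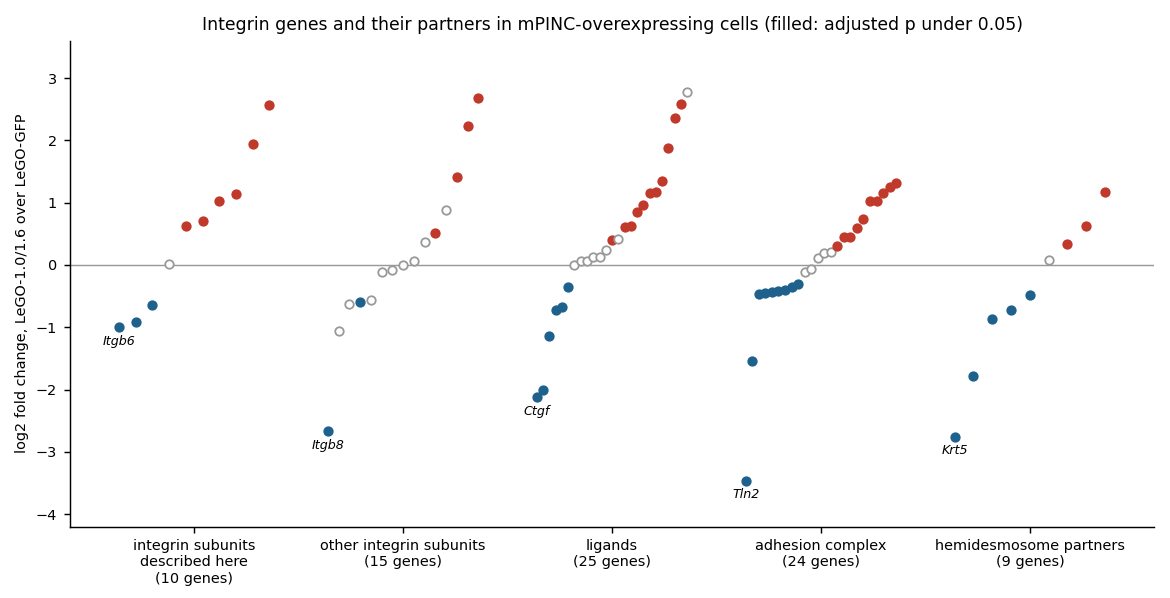
Log2 fold changes of LeGO-1.0/1.6 over LeGO-GFP (vertical axis) for the 10 integrin genes and 4 lists of 15, 25, 24 and 9 related genes, each point a gene and filled where the adjusted p was under 0.05, with the lowest called gene of each set named. Each list holds genes on both sides of 0, from *Tln2* at -3.46 upwards.

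With knockdown and with hormones, the counts in these lists stand beside the shares of all probes called, which were 2.96% for siPINC1.0/1.6 in −LH cells, 3.84% in +LH cells and 27.1% for hormones. In −LH cells with siPINC1.0/1.6, 5 ligands rose and 2 fell, among them the matrix glycoprotein *Tnc* at 1.21 ± 0.14 and the collagen chain *Col1a1* at -1.79 ± 0.08, while 1 of 15 other integrins rose (*Itgb7*, 1.58 ± 0.11) and 1 fell (*Itga8*, -1.65 ± 0.18). 1 adhesion complex gene fell (*Fermt2*, -0.51 ± 0.06). Among hemidesmosome partners the transmembrane collagen *Col17a1* fell (-0.59 ± 0.06). In +LH cells with siPINC1.0/1.6, 4 of 9 hemidesmosome partners rose and 1 fell, with *Krt5* at 0.59 ± 0.07, *Krt14* at 0.55 ± 0.11 and *Dst* at -0.48 ± 0.09, and 3 of 25 ligands rose, with *Cyr61* at 0.58 ± 0.06. None of the 4 lists held a called gene with siPINC in either hormone state. With hormones in siNEG cells 8 ligands rose and 7 fell, with *Ctgf* at 4.90 ± 0.09 and the fibronectin gene *Fn1* at -1.97 ± 0.12, and 11 adhesion complex genes rose and 3 fell, with *Lims2* at 3.24 ± 0.21 and *Parva* at -0.82 ± 0.06.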

How the data were processed

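HC11 cell RNA was measured on 24 1-colour Agilent arrays. The authors deposited, per array, Feature Extraction intensity values, already background-subtracted and detrended, and a table of log2 values that the authors quantile normalized, used only as an alternative, with the signal column behind it not given in the sources used here. The processed intensity was taken as log2, quantile normalized over 59305 noncontrol spots, and outlier spots (146 to 644 per array) were dropped before averaging to 55681 probes. No spot was saturated. Comparisons were fitted with limma 3.58.1 in R 4.3.3, separately for −LH siRNA, +LH siRNA, all siRNA (hormones and interactions) and lentivirus arrays, with Benjamini-Hochberg adjustment over all probes, and the code was tested on simulated data. The number of arrays limits the precision, and p-values cover the spread between cultures. The 10 genes are all described. From 4 related lists, the called genes with the 2 largest rises and falls, well above background on every array of both groups, could be named. Some genes of the lists are not reported here. The genes and lists were chosen with earlier results of these data known. Alternatives were another normalization, background correction, filter, prior, test, slide term, replicate block, joint fit, probe averaging and each array left out.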

Additional observations from a re-analysis of the deposited data

Results flagged for a closer look

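The effect of siPINC1.0/1.6 differed between cells with and without hormones for *Itgb3* (difference of log2 fold changes 1.51 ± 0.08, adjusted p = 1.48e-05, limma) and for *Itga6* (0.71 ± 0.10, adjusted p = 0.00274, limma), tested as an interaction over 15 siRNA arrays. The *Itgb3* effect was -1.14 in −LH and 0.37 in +LH cells, and the *Itga6* effect was -0.67 and 0.04. The −LH fall of *Itgb3* was part of how the study picked that gene. The *mPINC* probe itself differed by -1.11 in −LH and 0.19 in +LH cells, and its part in the difference was not tested.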

How the results depend on the processing

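Of 539 values of 27 called gene results under alternatives, 512 kept the call, 27 lost it and 0 changed sign. For siPINC1.0/1.6 in −LH cells the 2 called genes became 0 with the 75th percentile and 1 with the deposited processed values. They became 0 with the methods' t-test after adjustment, 0 with the replicate block and 0 to 0 with any 1 array left out. Without adjustment, at the methods' thresholds (p under 0.01 and a fold over 1.8), that t-test called 1 gene, *Itgb3*, lower. For siPINC1.0/1.6 in +LH cells the 1 called gene became 0 with the 75th percentile, 0 with the deposited processed values, 0 with the replicate block and 0 with the mean of a gene's probes, and was 1 to 1 with an array left out. For the siPINC interaction the 0 called genes became 1 with bright probes only and 1 with a trended and robust prior. The cause was not tested. Under the methods' t-test after adjustment the hormone effect on *Itga6* did not pass. Leaving out 1 array gave 3 to 5 called genes for hormones, 2 to 2 for the siPINC1.0/1.6 interaction, 9 to 9 for LeGO-1.0/1.6 against either control and 0 to 0 for siPINC, its interaction and LeGO-DCR. Same-numbered arrays did not deviate together (correlations from -0.208 to 0.073), so the replicate number was not taken as a pairing. With 2 arrays per −LH group, the adjusted p of the −LH calls rests on each single array.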
